A study of Mus musculus with 2 samples.

Results

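Heme, the iron porphyrin held by every cytochrome P450, is built by a chain of enzymes and opened by the heme oxygenases. The 9 genes described here are 7 enzymes of that chain (Alas1, Alad, Uros, Urod, Cpox, Ppox and Fech) and the 2 heme oxygenases (Hmox1 and Hmox2). They were found by gene symbol among the 55536 genes of the deposited gene table, and all 9 were present. Total RNA was sequenced from whole adrenal gland of B6CASTF1/J male mice, an F1 hybrid line, at 2 months of age. The 2 libraries, called replicates 1 and 2, form 1 group with no treatment or mutant, and each was made from 300 ng of RNA with a strand-keeping kit, reduced ribosomal RNA and added ERCC spike-in RNAs. Per the sample descriptions the replicates are different animals, although the library descriptions and the donor field are the same for both. One library stands on each side of any difference, so no test was possible, and differences between replicates are values with counting intervals only.

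Alas1 joins glycine and succinyl-CoA in mitochondria and is the rate-limiting step outside red cell precursors, where Alas2 takes its place. Alad, Uros and Urod work in the cytosol. Cpox, Ppox and Fech finish the molecule in mitochondria, where Fech inserts iron. Hmox1 is the inducible oxygenase and Hmox2 the constitutive one, and both take electrons from Por to yield biliverdin, iron and carbon monoxide. In the adrenal cortex much heme goes to the P450s of steroid synthesis, among them Cyp11a1, Cyp21a1, Cyp11b1 and Cyp11b2.

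Summed over all rows, the alignment-based tables came to 36512736 expected counts for replicate 1 and 34454892 for replicate 2. The 7 cortex markers summed to 12585 and 13639 TPM (transcript level per length, scaled to a fixed sum in each library), and the 6 chromaffin cell markers to 2114 and 1859 TPM. Markers of other tissues differed between the libraries. The 7 brown fat markers summed to 1557 TPM in replicate 1 and 792 in replicate 2, and the 8 red cell markers to 1949 and 1174 TPM. White fat markers summed to 3291 and 2611 TPM, and endothelial markers to 155 and 172 TPM. In bulk tissue, fewer cells of a type and less RNA per cell cannot be told apart.

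The window around an annotated start of Alas1 is shown because Alas1 had by far the highest level of the 9 genes and the libraries differed most there. Capitals mark a run that holds the letters GCATGCGC on both strands, the core of the NRF-1 motif, which was found on either strand in 2.71% of the 32851 mouse promoter windows of the same length. The windows are those of RefSeq on GRCm38.p6, from 250 bases before to 50 bases after a start. This one is chr9:106247681-106247980, on the minus strand and written 5′ to 3′. A second Alas1 window, upstream and overlapping, holds the same run. Motif words for an E-box, GATA, a GC box, an NR5A1 half-site and a CRE were also searched, with no match in the window shown. The second window held 1 GC box. The NR5A1 and CRE words were in none of the 12 windows, which cover 7 of the 9 members. These words occur in only 4.72% and 1.79% of all windows, so absence from so few windows says little.
Alas1 promoter window: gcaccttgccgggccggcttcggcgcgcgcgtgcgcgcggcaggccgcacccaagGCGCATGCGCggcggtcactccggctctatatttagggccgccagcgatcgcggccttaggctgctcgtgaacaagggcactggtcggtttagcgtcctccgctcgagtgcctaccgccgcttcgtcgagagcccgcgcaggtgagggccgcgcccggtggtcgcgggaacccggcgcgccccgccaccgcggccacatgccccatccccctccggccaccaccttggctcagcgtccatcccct

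In that window 6 Alas1 transcript models start, with 1545 and 2509 expected counts summed in replicates 1 and 2. The overlapping upstream window holds the start of 1 model, Alas1-211, with 3443 and 5306 counts. By read-based counts the order was the other way, with 3268 and 5203 on the 6 models and 928 and 1427 on Alas1-211. Alas1-207 starts upstream of both windows, at 106248654. It had 176 and 127 expected counts, but 4222 and 6706 read-based counts, more than the models of either window. The transcript that took most Alas1 counts starts in neither window (see the description of its models further on). NRF-1 itself, a transcription factor of nuclear genes for mitochondria, is encoded by Nrf1, which was measured at 7.04 and 7.42 TPM. A match of letters does not show binding, which was not measured.

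Alas1 (chromosome 9, 106233455 to 106248654, minus strand, mm10) reached 489 and 817 TPM (replicates 1 and 2), a mean of 653 ± 232 (SD, n = 2). Its mean ranked 25 among the 11931 nuclear protein-coding genes that reached 1 TPM in both libraries. Both libraries had Alas1 above every other member by more than 10-fold. Alas1 took 80.1% of the summed TPM of the 7 enzymes in replicate 1 and 86.5% in replicate 2.

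The cytosolic enzymes came next in the chain. Alad (chromosome 4, 62509169 to 62519918, minus strand), which joins molecules of aminolevulinic acid into porphobilinogen, had 34.0 and 35.2 TPM in replicates 1 and 2 (mean 34.6 ± 0.827). Uros (chromosome 7, 133686243 to 133710072, minus strand), which closes the tetrapyrrole ring as uroporphyrinogen III, had 5.37 and 4.46 TPM (4.92 ± 0.643). Urod (chromosome 4, 116989965 to 116994413, minus strand), which trims the acetate side chains of that ring, had 30.4 and 30.7 TPM (30.6 ± 0.177). Uros was thus the lowest of the cytosolic steps in both libraries. Urod over Uros was 5.67 and 6.88, and Alad over Uros was 6.34 and 7.89.

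The mitochondrial end of the chain had a low pair and a higher last step. Cpox (chromosome 16, 58670292 to 58717636, plus strand), which oxidizes coproporphyrinogen III, had 4.93 and 6.26 TPM in replicates 1 and 2 (5.60 ± 0.940). Ppox (chromosome 1, 171275990 to 171281186, minus strand), which forms protoporphyrin IX, had 9.33 and 11.5 TPM (10.4 ± 1.56). Fech (chromosome 18, 64452914 to 64490251, minus strand), the ferrochelatase, had 37.6 and 38.9 TPM (38.2 ± 0.905). Fech was the highest of the enzymes after Alas1, at 7.62 and 6.21 times Cpox and 4.03 and 3.37 times Ppox. Summed, these 3 late enzymes stood at 0.742 and 0.805 times the 3 cytosolic ones.

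Of the oxygenases, Hmox1 had the second-highest mean of the 9 genes and Hmox2 one below the median member, Urod. Hmox1 (chromosome 8, 75093621 to 75100589, plus strand) had 42.4 and 53.2 TPM in replicates 1 and 2 (47.8 ± 7.66). Hmox2 (chromosome 16, 4726361 to 4766742, plus strand) had 26.9 and 25.6 TPM (26.2 ± 0.919). The inducible gene was above the constitutive one in both libraries, by 1.58 and 2.08 times. By read-based TPM, from the authors' other set of tables, that ratio was 1.08 and 1.48.

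**Figure D1:**
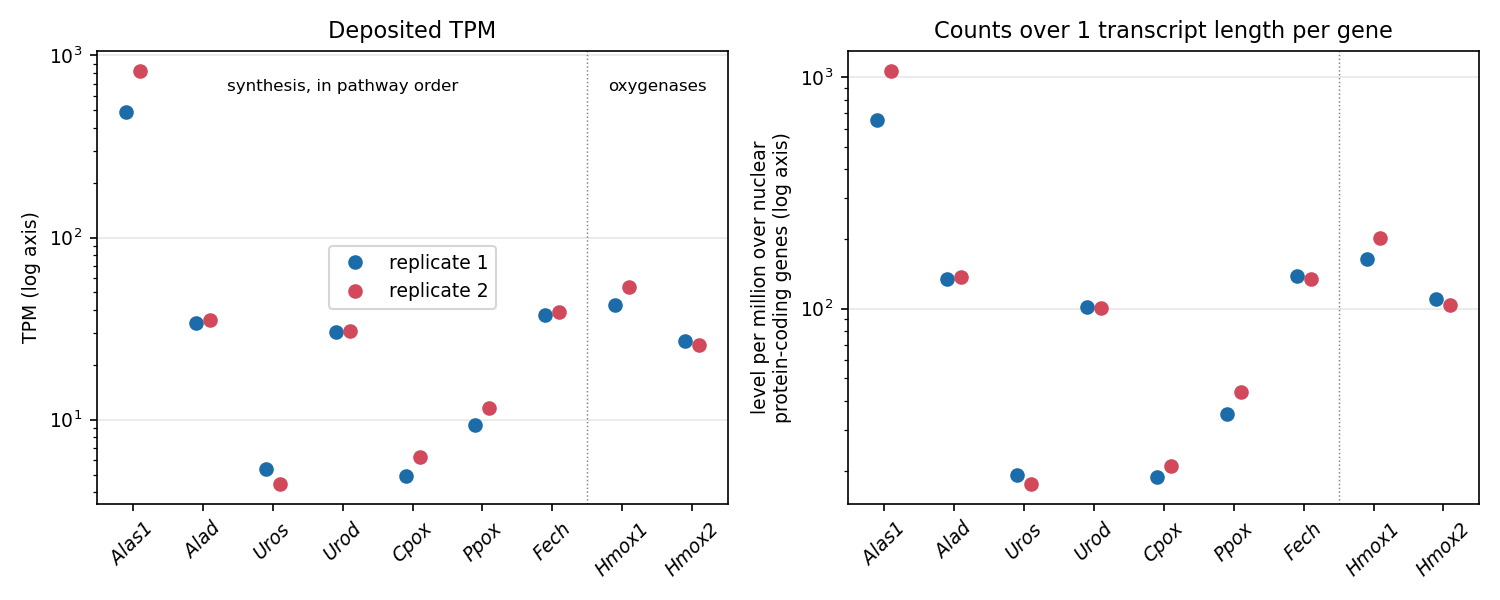
Levels of the 9 genes along the heme pathway, on log axes, with replicate 1 left of replicate 2. The left panel plots deposited TPM, where Alas1 stands at 489 and 817, and the right panel plots expected counts divided by 1 transcript length per gene and rescaled over nuclear protein-coding genes, where it stands at 653 and 1060. In both panels Uros and Cpox are the lowest.

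In order of mean TPM the genes ran Alas1, Hmox1, Fech, Alad, Urod, Hmox2, Ppox, Cpox and Uros. The ranges over the 2 libraries overlapped for one pair of neighbours, Cpox and Uros. In replicate 1 Cpox was below Uros and in replicate 2 above it. By read-based TPM the ranges of Fech, Hmox1, Urod, Hmox2 and Alad overlapped each with the next, so their order depended on the quantifier. Alas1 at the top, and Ppox, Cpox and Uros as the lowest members, held in both sets of tables.

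Set against each other within a library, the 7 enzymes summed to 8.82 times the oxygenases in replicate 1 and 11.98 times in replicate 2 (mean 10.4 ± 2.23). Most of that was Alas1: the other 6 enzymes stood at 1.76 and 1.61 times the oxygenases. Alas1 was 13.0 and 21.03 times Fech, the next enzyme, and 4.02 and 6.43 times the other 6 enzymes summed. The 5 steroid P450s, which use the heme, summed to 10.8 times Alas1 in replicate 1 and 7.52 times in replicate 2, and to 140 and 158 times Fech.

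The size of the Alas1 lead depended on how its transcript models were counted. Of its 13 annotated models, Alas1-206, a processed transcript of 1905 bases that ends its 5′ side inside the gene at 106243634, took 70.0% of Alas1 counts in replicate 1 and 69.2% in replicate 2. It shares 1825 bases with Alas1-202, a coding model of 3089 bases that reaches the upstream exons, which held 266 and 426 counts. Alas1-211, a coding model of 460 bases with an incomplete end that covers the 5′ side, took 50.2% and 49.7% of Alas1 TPM. Its counts were 3443 and 5306, far fewer than the 13681 and 20816 of Alas1-206. The models share 153 bases, and together took 87.6% and 86.8% of the counts. TPM adds a count per length for each model, so reads placed on a short model weigh more than the same reads on a long one.

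With all Alas1 counts divided by the length of Alas1-202, and every other gene treated alike, Alas1 came to 653 and 1060 per 1000000 over nuclear protein-coding genes. Deposited TPM rescaled over the same genes gave 1645 and 2684, so the single-length level was 39.7% and 39.5% of it. On the single-length scale Alas1 was 4.70 and 7.75 times the next enzyme, ranked 152 in place of 25, and the 7 enzymes were 4.01 and 4.96 times the oxygenases. There Alas1 was 1.46 and 2.33 times the other 6 enzymes summed, and the 5 steroid P450s were 31.2 and 21.9 times Alas1. Alas1 stayed the highest member in both libraries. Which models the cells made was not tested.

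**Figure D2:**
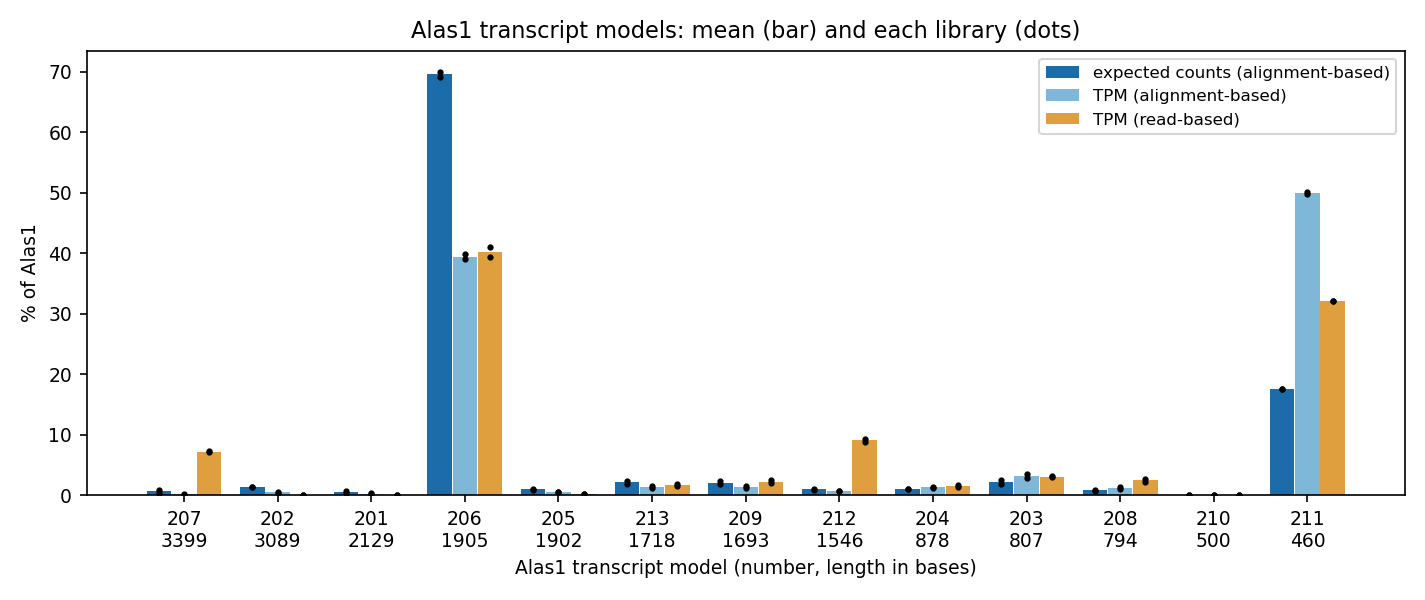
Share of Alas1 (percent, vertical axis) assigned to each of its 13 transcript models, ordered by length in bases, from alignment-based counts and TPM and from read-based TPM. Bars are means and dots the libraries. Alas1-206 holds most counts, while the 460-base Alas1-211 holds 49.9% of alignment-based TPM and 32.1% of read-based TPM.

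Alas1 was also the member in which the libraries differed most. It had 19553 expected counts in replicate 1 and 30099 in replicate 2, a log2 ratio of replicate 1 over replicate 2 of -0.63 after TMM scaling (95% counting interval -0.66 to -0.61). Of the 12430 genes that averaged at least 100 counts, 2.13% were as far from 0. It was the single member of 9 past 1.5-fold, against 2.68% of all genes in either direction and 1.26% lower in replicate 1. No member was past 2-fold, against 0.451% of all genes. Read-based counts gave -0.61 (-0.64 to -0.59) for Alas1. The 6 liver markers were also low in replicate 1, at 2.41 TPM summed against 8.25 TPM in replicate 2, and none reached 1 TPM in both libraries. Alb, the highest of them, had 66 and 347 counts. Their part in the Alas1 difference was not tested.

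The Alas1 difference ran through most of its models. Of 12 models that averaged at least 100 alignment-based counts, 10 were lower in replicate 1 beyond counting error and 1, Alas1-207, was higher. Alas1-207 had 176 and 127 of these counts, but 4222 and 6706 read-based counts, fewer in replicate 1. The models share bases, so they are not separate checks of the difference. Alas1-206 had a log2 ratio of -0.62 (-0.65 to -0.58) and Alas1-211 one of -0.63 (-0.70 to -0.57). The 4 models annotated with a retained intron held 1311 and 2484 counts and gave -0.93 (-1.03 to -0.83). Across the 1675 genes that averaged at least 100 counts on such models, these models also ran lower in replicate 1, with a median difference of -0.18 from the ratio of their gene. For Alas1 that difference was -0.30, and 37.2% of those genes were lower.

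Other members differed less. Ppox had 603 counts in replicate 1 and 717 in replicate 2, a log2 ratio of -0.26 (-0.42 to -0.10). Hmox1 had 2419 and 2808 counts, a ratio of -0.23 (-0.30 to -0.15). Both were lower in replicate 1 under all 8 alternative scalings and quantifications, as were Alas1 and Cpox. Fech had 2725 and 2511 counts, a ratio of 0.11 (0.03 to 0.19), and Hmox2 had 1315 and 1177, a ratio of 0.15 (0.04 to 0.26). Hmox2 stayed above 0 under each scaling, while Fech fell below it as a ratio of TPM (-0.05). The median of all genes was itself below 0 with total count, ERCC counts, TPM (-0.08) and the single-length scale.

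Alad (1491 and 1438 counts), Uros (297 and 258), Urod (1418 and 1336) and Cpox (566 and 595) had intervals that include 0. In all, 5 of 9 members differed beyond counting error, against 38.6% of all genes. The median ratio of the members was 0.04, and that of all genes was 0.0044. With ERCC counts as the scale the median of all genes was -0.0996, and Alas1 was -0.74. The median distance from 0 was 0.150 over the 9 members, 0.129 without Alas1 and 0.108 over all genes.

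**Figure D3:**
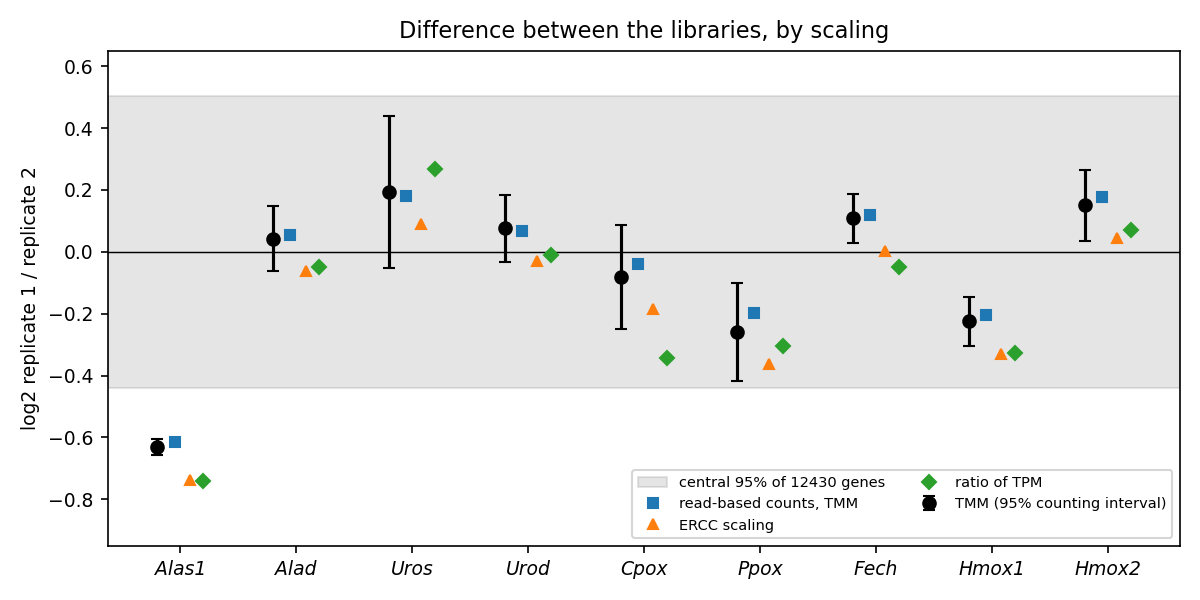
Log2 of replicate 1 over replicate 2 for each member (vertical axis) from TMM-scaled counts with 95% counting intervals, read-based counts, ERCC-scaled counts and TPM. The grey band holds the central 95% of 12430 genes, from -0.44 to 0.50. Alas1 alone lies outside it, at -0.63.

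Ppox and Uros had the largest retained-intron shares of the 9 genes. Retained-intron models took 39.1% of Ppox counts in replicate 1 and 46.8% in replicate 2, and a mean share that high or higher was rare among the 7066 genes with such models, of which 97.7% were lower. Their median was 3.57%. In Uros the one such model took 12.1% and 26.8%, from 35.96 and 69.26 counts. Ppox shares 791 exonic bases with B4galt3 on the opposite strand, which had 571 and 641 counts. The kit keeps strand, but whether the counting used it is not given in the sources used here.

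Hmox1-201 took 99.9% and 99.3% of Hmox1 counts, and Cpox-201 took 97.5% and 95.3% of Cpox counts. Urod-201 took 92.4% and 91.4%, and Alad-201 took 89.3% and 82.4%. In Fech, models annotated for nonsense-mediated decay took 16.4% and 18.2% of alignment-based counts, and 4.41% and 5.31% of read-based counts. All 6 annotated Hmox2 models are coding, so its counts could fall on no other type. Hmox2-203 led them with 73.6% and 70.0% of TPM. Hmox2 shares 892 of its 2217 exonic bases with Cdip1 on the opposite strand, which had 3230 and 3114 counts.

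By the mean TPM of both libraries the leading transcript was a coding model in 9 of 9 genes, with a median share of 71.8%. Read-based means gave the same leader in 6 of 9, and differed for Alas1, Uros and Fech. In replicate 2 alone the read-based leader of Alad was Alad-202, at 50.5% of TPM, above Alad-201 at 45.9%. In Fech the read-based leader by the mean was Fech-215, a decay model of 495 bases with 28.2% and 35.2% of TPM, in place of Fech-201. In replicate 1 alone it was Fech-212, a processed transcript, with 42.9% of TPM against 8.19% in replicate 2. In Uros it was Uros-201, with 30.2% and 45.2%, in place of Uros-203.

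**Figure D4:**
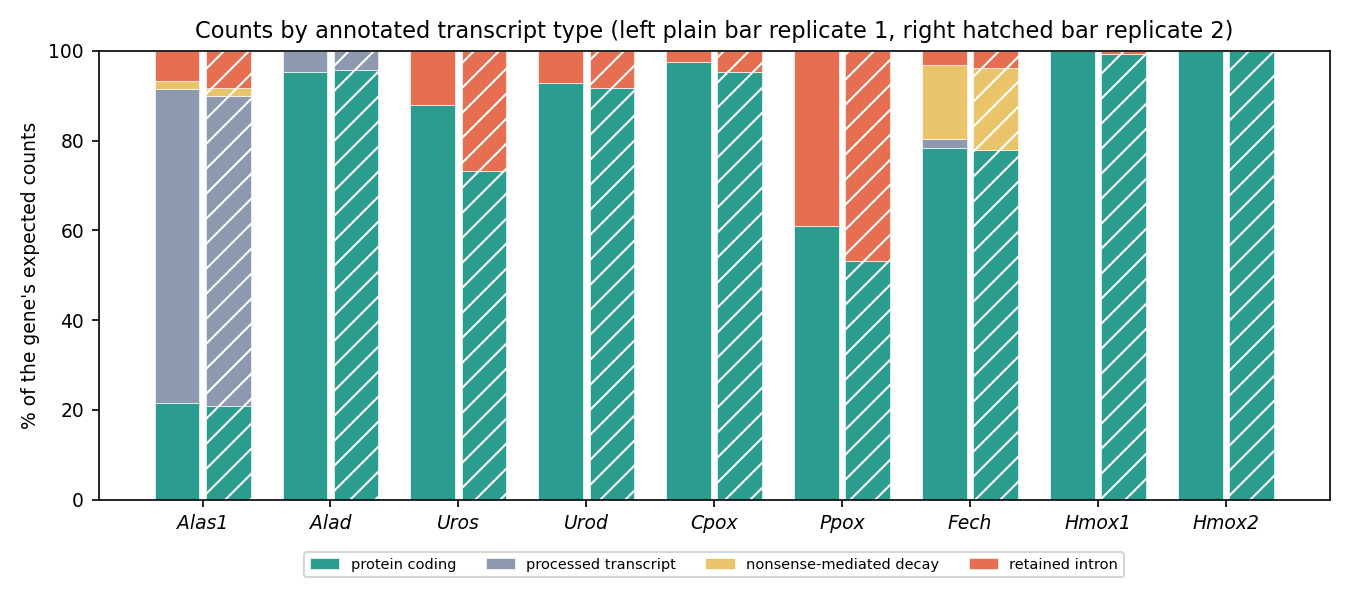
Share of each member's expected counts (percent) by annotated transcript type, with replicate 1 as the plain left bar and replicate 2 as the hatched right bar. Ppox holds the most retained-intron counts (39.1% and 46.8%), and Alas1 is mostly on 1 processed transcript.

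Uros has an internal start as well as an upstream one, and the internal window is shown because the models that start in it had no counts. This window, chr7:133702451-133702750 on GRCm38.p6 (minus strand, RefSeq), contains 2 matches to GATA words, marked in capitals. The words searched, on both strands, were AGATAA or AGATAG, and likewise TGATAA or TGATAG. Such words occur in 29.8% of all windows. The other motifs searched had no match in this window. The Cpox window, and the Hmox2 window in which Hmox2-203 starts, also held 2 matches each, so they are not particular to Uros. GATA1, a red cell factor, is one of the factors known to bind such words, and binding was not measured.
Uros internal window: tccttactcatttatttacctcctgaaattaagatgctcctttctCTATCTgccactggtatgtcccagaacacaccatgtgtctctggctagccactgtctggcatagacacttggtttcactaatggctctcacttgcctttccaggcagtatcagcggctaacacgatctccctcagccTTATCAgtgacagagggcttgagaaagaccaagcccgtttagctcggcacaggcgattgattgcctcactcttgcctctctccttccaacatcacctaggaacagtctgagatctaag

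The 2 models that start there, Uros-209 and Uros-210, had 0 counts in both libraries by both quantifiers. Both are short models (371 and 323 bases) with an incomplete end, so 0 counts do not show that the start is unused. Models that start elsewhere held all 297 and 258 Uros counts, which is few enough that a rare transcript would not be detectable at this depth. Alas2, the red cell form of the first enzyme, had 7.97 and 5.33 TPM in replicates 1 and 2, from 508 and 310 counts. Alas1 over Alas2 was 61.4 and 153 by TPM, and 24.9 and 62.9 on the single-length scale. Alas2 was higher in replicate 1, with a log2 ratio of 0.70 (0.50 to 0.91), and so were the 4 globin genes measured, at 0.76 to 0.85. Of the red cell markers, Epb42 had 1 and 0 counts.

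Genes around the pathway were taken from lists, with 80 of 81 at 1 TPM or more in both libraries. The exception was Cyp17a1, at 0.87 and 0.85 TPM, the steroid 17-hydroxylase that adult mouse adrenals barely express. For comparison, among the 15660 genes that averaged at least 20 counts, 17.4% were higher in replicate 1 beyond counting error and 16.7% lower. Of the 12430 that averaged at least 100 counts, 38.6% differed beyond it in either direction. Intervals narrow as counts rise, so lists of genes with many counts pass more readily than these shares. No listed gene of these 81 was past 2-fold, against 1.55% of those 15660 genes.

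The enzymes that supply succinyl-CoA and glycine were mostly higher in replicate 1, opposite in sign to Alas1. Of 8, 6 were higher beyond counting error and none lower, with a median log2 ratio of 0.35. Sucla2, a succinyl-CoA ligase subunit, had 141 and 98.1 TPM (log2 0.61), and Ogdh, which makes succinyl-CoA, had 174 and 149 TPM (0.34). Slc25a38, the mitochondrial glycine carrier, had 7.18 and 6.58 TPM (0.14, -0.08 to 0.36). The 7 brown fat markers moved the same way, all beyond counting error with a median of 1.00, led by Ucp1 at 629 and 303 TPM. Red cell, white fat and chromaffin markers were also higher in replicate 1 by the median, at 0.76, 0.51 and 0.27. The part of these tissues in the values was not tested.

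Proteins that hold or modify heme elsewhere were also mostly higher in replicate 1. Of 13, 10 were higher in replicate 1 beyond counting error and 1 lower, with a median of 0.33. Cyc1, cytochrome c1, had 143 and 109 TPM (0.52), and Sdhc, which anchors heme in complex II, had 152 and 120 TPM (0.41). The one lower was Cyp51, the P450 of cholesterol synthesis, at 11.5 and 17.7 TPM (-0.43, -0.53 to -0.33); it was named after its value was seen. The list again moved the same way as the brown fat, red cell, white fat and chromaffin markers, and their part in it was not tested.

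The steroid P450s leaned the same way as Alas1, by less. Of 5, 3 were lower in replicate 1 beyond counting error and none higher, with a median of -0.18. Cyp21a1, the 21-hydroxylase, had 1625 and 2031 TPM (-0.21), and Cyp11b1, which makes corticosterone, had 1321 and 1593 TPM (-0.18). Cyp11a1, the enzyme that makes pregnenolone, had 2148 and 2298 TPM (-0.01, with an interval that includes 0). The 7 cortex markers had a median of -0.01. Cyp21a1 has near-identical copies, so its counts are less certain.

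Of 15 heme and porphyrin carriers, 4 were higher in replicate 1 beyond counting error and 1, the heme-binding Pgrmc1, was lower, at 132 and 152 TPM (-0.11). Of 10 genes of mitochondrial iron and iron-sulfur assembly, 4 were higher and 1 lower, the lower being the iron carrier Slc25a37 at 8.61 and 10.6 TPM. Ferritin heavy chain Fth1 was the most abundant listed iron gene, at 1133 and 1107 TPM. Of 11 iron uptake and storage genes, 7 were higher in replicate 1 and 2 lower beyond counting error, with a median of 0.12. The iron exporter Slc40a1 had 3.64 and 2.51 TPM (0.50, 0.28 to 0.73), and the transferrin receptor Tfrc had 18.2 and 15.2 TPM (0.23, 0.15 to 0.32).

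Among partners of the oxygenases, Por, the P450 reductase that feeds them electrons, had 76.6 and 77.4 TPM. That was 1.11 and 0.983 times Hmox1 plus Hmox2. The biliverdin reductases stood lower, with Blvrb at 14.0 and 12.7 TPM and Blvra at 8.04 and 8.19 TPM. The oxygenases together were 3.14 and 3.77 times these reductases.

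Known regulators gave no common direction. Of 14, 4 were higher in replicate 1 beyond counting error and 2 lower, with a median of -0.01. Bach1, the heme-sensing repressor of Hmox1, had 4.15 and 4.93 TPM, and Nfe2l2, its activator, had 24.4 and 26.9 TPM, both with intervals that include 0. Clpx and Lonp1, mitochondrial proteins known to act on ALAS1, had 21.9 and 19.0 TPM (0.30) and 165 and 180 TPM (-0.04). Macrophages are rich in Hmox1. Of 12 macrophage markers, 9 reached 1 TPM in both libraries, and the list summed to 142 and 151 TPM with a median of 0.03. Of the 9 that averaged at least 20 counts, 1 was higher in replicate 1 beyond counting error, Cd163 (0.43, 0.24 to 0.61). Another 1 was lower, C1qb (-0.14, -0.27 to -0.01). Marco, Vsig4 and Spic had 1 to 6 counts per library. The part of macrophages in the Hmox1 difference was not tested.

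**Figure D5:**
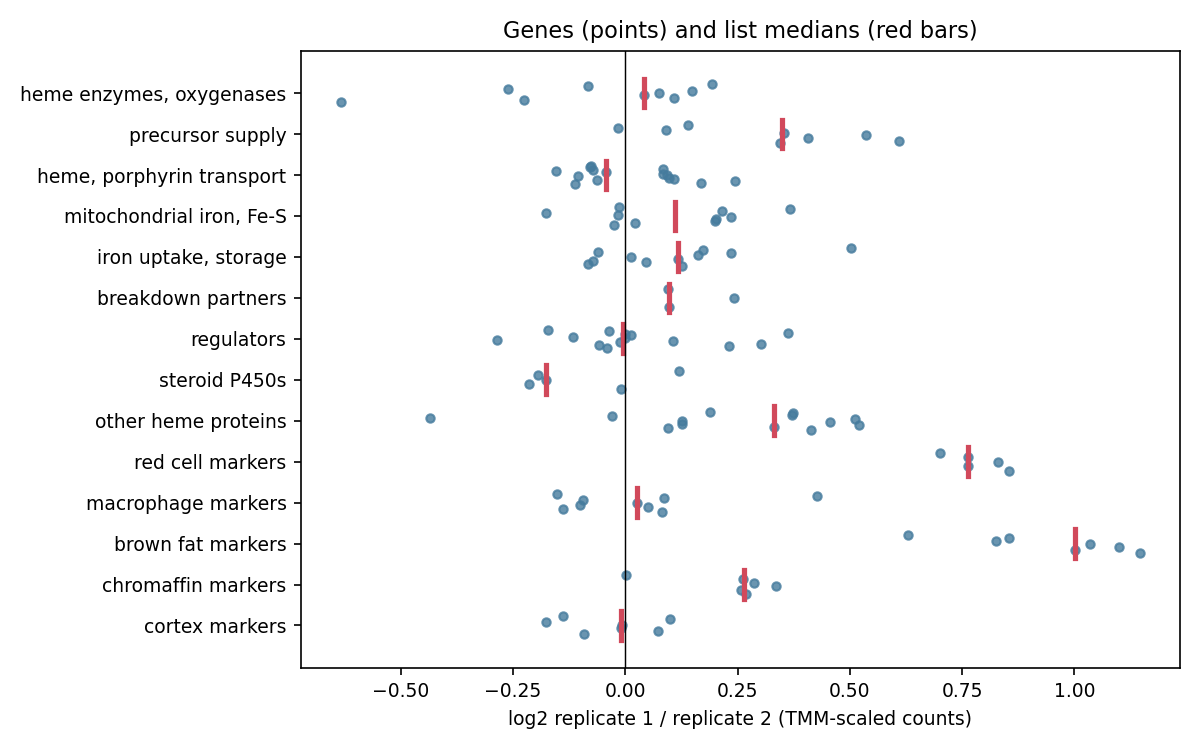
Log2 of replicate 1 over replicate 2 (horizontal axis) for genes averaging at least 20 counts, by list, with red bars at list medians. Liver, white fat and endothelial markers are not plotted. Alas1 is the leftmost point of the plotted lists, at -0.63, while precursor supply has a median of 0.35 and brown fat markers one of 1.00.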

How the data were processed

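Total RNA-seq of adrenal gland was described in 2 libraries of 1 group. The authors deposited gene and transcript tables with expected counts, TPM, FPKM and bounds of a credibility interval, per the file headers, and separate read-based transcript tables with estimated counts and TPM. Build mm10 and annotation GENCODE M21 are those of the labels and file notes; aligner and quantifier versions are not given in the sources used here. Whether reads of CAST alleles were assigned as well as others was not tested.

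Levels are alignment-based TPM. For each ratio, 0.5 was added to the counts of both libraries, which were divided by TMM-scaled library sizes (edgeR 4.0.16, genes of at least 10 counts in each library) before taking log2 of replicate 1 over replicate 2; DESeq2 1.42.0 size factors, total count, ERCC counts, TPM and read-based counts were alternatives. Counts were rounded for TMM and DESeq2. Intervals (95%, exact Clopper-Pearson) show counting error alone: the reads carry no molecular identifiers, so several may stem from 1 molecule. Over 16766 genes the biological coefficient of variation was 0.103. For the single-length scale, expected counts were divided by the effective length of the basic coding transcript with most counts, chosen after seeing the data. Estimated counts summed to 35315387 and 33397838, and ERCC counts to 329991 and 304893; 26249 rows for other RNAs name no gene and stayed out. Transcript names come from the read-based tables; promoter windows were given for 7 of 9 members.

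The members and lists were chosen with earlier results of these data known. The rule for naming took all members and, from each list, the 4 highest by mean TPM, any at 0 counts and any past 2-fold at 100 or more mean counts. Not every gene that met this rule is named, and none is from the list of mitochondrial iron and iron-sulfur assembly. Others named were picked with their values in view. These are Nrf1, Slc25a38, Slc25a37, Slc40a1, Tfrc, Cyp51, Cyp17a1, Bach1, Cd163, Marco, Vsig4, Spic, Epb42 and genes on opposite strands. Some listed genes are not reported here. The ratio step was tested on simulated data.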

Additional observations from a re-analysis of the deposited data

How the results depend on the processing

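No paired analysis was possible because the 2 libraries form 1 group. Dividing counts by 1 transcript length per gene, chosen after seeing the data, lowered Alas1 over the next enzyme to 6.23 from 17.0 and the enzymes over the oxygenases to 4.48 from 10.4 (means of both libraries); reads placed on a 460-base model weigh less there. The Alas1 log2 ratio of -0.63 was -0.71 with total count, -0.74 with ERCC counts, -0.74 as a ratio of TPM and -0.70 with 1 length. The Fech ratio of 0.11 turned to -0.048 as a ratio of TPM. The median of all genes was 0.0044 with TMM. It was -0.069 with total count, -0.0996 with ERCC counts, -0.084 as TPM and -0.063 with 1 length. The cause of the Fech turn was not tested. At 1.5-fold 1 member was called in place of 0 at 2-fold. The median leading-transcript share was 50.3% in the read-based tables against 71.8%. Without replicate 1 or without replicate 2, these summaries ranged from 13.0 to 21.03, from 8.82 to 11.98 and from 70.0% to 73.6%. Of the recomputed values, 156 stayed within their spread, 53 moved and 1, that of Fech, changed sign among ratios beyond counting error. The 156 include 28 without replicate 1 and 28 without replicate 2, which cannot leave a spread taken from the same 2 libraries. The 53 include 9 from rescaling TPM over nuclear protein-coding genes, a change of unit. The tally is therefore no measure of robustness. Alad and Urod, whose intervals include 0, crossed it: Alad to -0.03 with total count, -0.06 with ERCC counts, -0.05 as TPM and -0.02 with 1 length, and Urod to -0.03 with ERCC counts and -0.01 as TPM. Uros and Cpox rest on the fewest reads, and Cpox had more counts than Uros in both libraries. Per length their order changed between the libraries by TPM, by read-based TPM and with 1 length, so it was not resolved. With 1 library a side, no difference here has a replicate check.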
